A study of Bos taurus with 18 samples.

Results

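The 6 pituitary libraries of Angus cows at 30 months and at 18 months were compared, out of 18 libraries in the series, to ask which gene models differ between the mature gland before breeding and the gland after the first calf. Each age is represented by 3 cows. The 18-month cows were sexually mature and ready to be bred, and the 30-month cows had borne their first calf; none was in heat at slaughter, and all were described as healthy and similar in weight within an age. The 30-month cows were both older and past a first calf, so age and calving cannot be told apart. No treatment or genetic change separates the groups, and the labels do not say whether the 30-month cows were pregnant or in milk. The series also holds pituitaries of 3 cows just weaned at 6 months and the hypothalamus at all 3 ages. Poly(A) RNA of frozen glands was sequenced; the 9 cows gave both tissues, 1 library per cow and tissue.

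The pituitary lies below the hypothalamus, which controls it through releasing and inhibiting hormones. Its anterior lobe holds separate endocrine cell types, among them the gonadotrophs that drive the ovary, the lactotrophs that make prolactin and the somatotrophs that make growth hormone, and its posterior lobe consists largely of nerve endings and glia. Pregnancy and lactation are known to raise the number and activity of lactotrophs in mammals. In gland tissue, fewer cells of a type and less RNA per cell cannot be told apart.

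The deposited tables name gene models by numbers, and 0 of 27376 identifiers matched the RefSeq table used here. Hormone genes and cell type markers were therefore not identified, and the tissue label was not checked against them. Gene models are described by their identifiers, lengths, chromosomes and values. New gene models, which the authors added to the annotation, carry the name Bos_taurus_newGene.

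Total counts ran from 28724861 to 38036840 in the 6 libraries. Reads at single-nucleotide polymorphism (SNP) sites, which give a second measure of the level of a gene model, ran from 3334980 to 6629119. In all 18 of 18 libraries the counts resembled the site reads of the same library more than those of any other, over 11573 gene models, so the columns of both tables belong together. One library, the 18-month replicate 3, stood apart: 39.2% of its site reads lay in 3′ untranslated regions (UTRs), against 23.9% and 24.2% in the other 18-month libraries and 21.5%, 23.3% and 23.8% at 30 months. Without that library the 18-month shares still lay above all of the 30-month ones, by a small margin.

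Of 18555 gene models that passed the filter on low counts, 0 (0.0%) had an adjusted p under 0.05 in the edgeR quasi-likelihood test of 30 against 18 months; the smallest adjusted p was 0.640. An unadjusted p under 0.05 was found for 1381 (7.44%), 503 higher and 878 lower at 30 months, while limma on log2(FPKM + 1) gave 764 higher and 479 lower. DESeq2 called 134 gene models, and limma on log2 values called 0. What follows is therefore a description of the gene models that were best separated, and not a list of proven changes.

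CPM values (counts scaled to library size with TMM factors) did not overlap between the ages in 1047 gene models higher at 30 months (5.64% of those tested) and 976 lower (5.26%). Among these, 380 and 329 differed by at least 1 in the means of log2(CPM + 0.5), a difference close to a 2-fold change for abundant genes. The difference remained at least 1 without the 18-month replicate 3 in 206 higher gene models (1.11% of those tested) and 174 lower ones (0.938%). These 380 (2.05%) are called separated here. The other 174 higher and 155 lower gene models reached a difference of 1 only with that library, and their median lengths, 8718 and 1357 bases, were further from the 4760 bases of all gene models tested than those of the separated ones.

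The threshold was not a natural break. Just inside it, gene21695 (chromosome 18, 5709 bases) differed by 1.01 without the 18-month replicate 3, and gene18778 (chromosome 16, 4176 bases) by -1.02. Also just inside were Bos_taurus_newGene_46527 at 1.002 and gene14645 at -1.02. Just outside it lay gene11159 at 0.993, gene7302 at 0.991, gene4025 at -0.996 and gene21223 at -0.988.

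**Figure D1:**
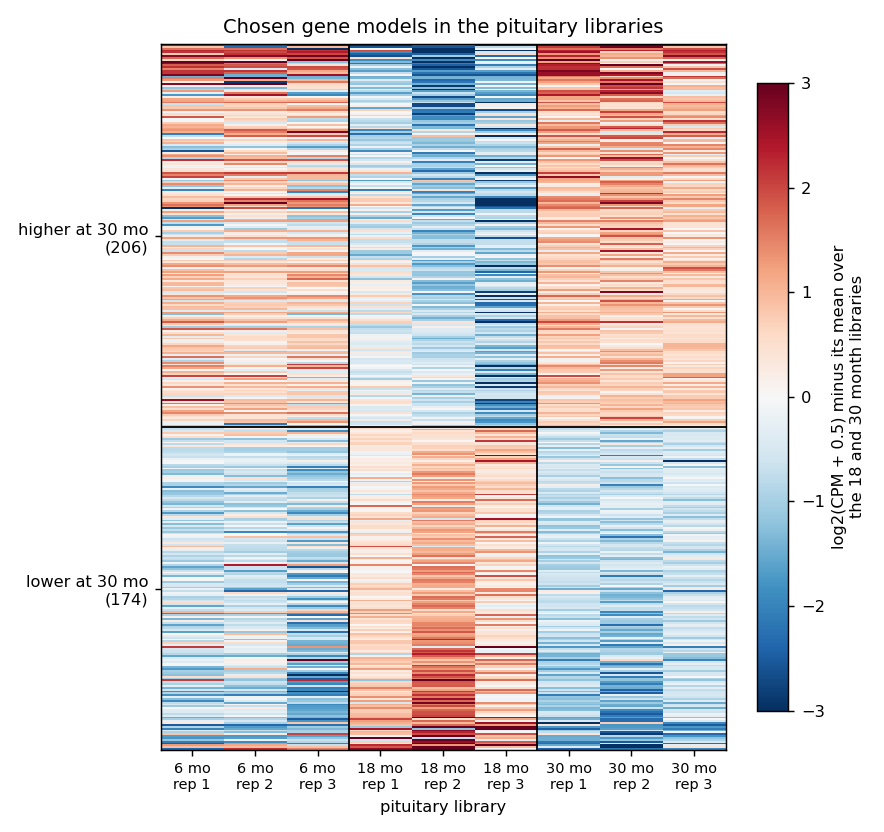
Heat map of the 380 separated gene models (rows) in the 9 pituitary libraries (columns), as log2(CPM + 0.5) minus the mean over the 18 and 30 month libraries; values beyond 3 or -3 take the end colours. The 18-month columns differ from the 30-month columns by choice; the 6-month columns, which played no part in the choice, look mostly like those of 30 months, and the 18-month replicate 2 has the deepest colours among the lower gene models.

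The separated gene models were less abundant than most: the mean over the 6 libraries had a median of 6.49 CPM for the higher and 9.21 CPM for the lower ones, against 20.2 CPM for all tested. New gene models made up 70 of the 206 higher and 30 of the 174 lower ones (17.2%), against 14.6% of all tested. In 99 of the 380, every library of the lower age was under 1 CPM, against 2198 of all 18555 tested. The median difference was 1.58 for the higher and -1.51 for the lower gene models. Their edgeR adjusted p ran from 0.640 to 0.790, and 279 of 380 had an unadjusted p under 0.05, a count that the choice itself raises. DESeq2 called 96 of the 380 at an adjusted p under 0.05, and 134 of all 18555 tested. The choice raises that count as well.

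Some libraries lay farther out than others. Among the 174 lower gene models the 18-month replicate 2 was the highest library in 118, the replicate 3 in 37 and the replicate 1 in 19. At the other end, the 30-month replicate 2 was the lowest library in 88, the replicate 1 in 56 and the replicate 3 in 30. The higher gene models were more evenly spread: the 18-month replicates 1, 2 and 3 were the lowest in 45, 85 and 76, and the 30-month replicates 1, 2 and 3 the highest in 74, 83 and 49. The number of separated gene models rose when a single library was left out. Fewer libraries must then not overlap, which by itself tends to raise the number, so a rise does not show dependence on that cow. With the 18-month replicate 1 or 2 left out, the condition without the replicate 3 also rested on a single 18-month library. The number was 789 higher and 428 lower when the 18-month replicate 1 was left out. Leaving out the 30-month replicate 2 gave 568 and 428, its replicate 3 gave 424 and 245, and the 18-month replicate 2 gave 312 and 246. With the 18-month replicate 3 left out of every condition it was 332 higher and 481 lower.

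Gene models higher at 30 months were led, among those with enough site reads, by several that were close to silent at 18 months. For gene7668, a model of 1739 bases on chromosome 6 whose 6 SNP sites span positions 62877054 to 62881541, the CPM was 1.34, 0.168 and 0.383 in the 18-month libraries and 18.3, 35.7 and 2.78 in the 30-month libraries. All 3 older cows lay above all 3 younger ones, and the edgeR log2 fold change was 4.90 (SE 1.12, adjusted p = 0.640). The 6-month libraries, at 12.5, 12.9 and 4.26 CPM, resembled those of 30 months. Site reads moved in the same direction, with 9, 0 and 1 reads at 18 months and 66, 127 and 5 at 30 months. Their ranges overlapped: the 30-month replicate 3 lay below the 18-month replicate 1, also after scaling to the site reads of each library.

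The site reads of gene23103 (chromosome 19, 39352832 to 39362542, 2719 bases) also followed. Its CPM was 0.873, 0 and 0 at 18 months and 13.3, 15.2 and 1.47 at 30 months, and its sites had 0 reads in each 18-month library against 22, 41 and 2 at 30 months. The 30-month replicate 3 was the lowest of its age in both gene7668 and gene23103. In that cow both gene models lay close to the 18-month range.

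A more abundant member of the group was gene29832, a model of 5142 bases on chromosome 28 with 14 coding, 19 3′ UTR and 25 intron sites between positions 39474680 and 39498518. It had 24.7, 5.99 and 12.4 CPM at 18 months and 98.2, 183 and 33.7 CPM at 30 months. Per length, its mean was 2.78 FPKM at 18 months and 18.7 FPKM at 30 months. The edgeR log2 fold change was 2.87 (SE 0.670, adjusted p = 0.640), and the 6-month libraries, at 67.1 to 80.4 CPM, lay within the range of 30 months. Its sites had 151, 34.9 and 133 RPM (reads scaled to the site reads of the library) at 18 months and 485, 986 and 133 RPM at 30 months, so that the site reads of the third cow of each age were level.

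A neighbour, gene29835, whose sites lie 33113 bases further along chromosome 28, was also separated and higher. It had 23.6, 32.99 and 7.90 CPM at 18 months against 59.3, 82.1 and 47.6 CPM at 30 months. Among separated gene models whose sites lay under 100000 bases apart, 9 adjacent pairs were found, of which 8 had the same direction. The same share over all gene models tested was not counted, so these numbers have no background to be judged by. On chromosome 27, gene29345 and gene29348 form such a pair, and both owe much of their size to a single cow: the 30-month replicate 2 had 34.7 and 62.4 CPM, against 4.62 and 9.62 in replicate 1 and 5.43 and 10.4 in replicate 3. The other higher pairs were gene11252 with gene11253 on chromosome 9 and gene32272 with gene32274 on the X chromosome. Lower pairs were gene1031 with gene1032 on chromosome 1, gene21743 with gene21744 on chromosome 18, gene11351 with gene11352 on chromosome 9, and gene2178 with gene2182 on chromosome 2, and the pair of opposite direction was gene2182 with gene2189. These neighbours were named after their values were seen.

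Other gene models near 0 at 18 months were less even at 30 months. No count of gene931 (chromosome 1, 4602 bases) was found in the 3 libraries of 18 months, and its CPM was 71.2, 1.52 and 1.50 at 30 months. A single 6-month library, at 72.1 CPM, matched the high 30-month one, while the others had 2.24 and 1.27 CPM. Its site reads were 43.5, 8.67 and 0.900 RPM at 18 months and 81.0, 36.4 and 69.7 RPM at 30 months. Reads thus lay at the sites assigned to it in the libraries without counts. Of its 20 sites, 0 were coding or 3′ UTR sites, 4 were 5′ UTR or start-gain sites and 1 was an intron site. The other sites were of other kinds, and whether they lie in its counted exons was not checked. For gene8325 (chromosome 7, 6276 bases) the CPM was 0, 0.0337 and 1.32 at 18 months and 14.2, 1.92 and 7.12 at 30 months. Its site reads followed by 0.92 on the log2 scale, but their ranges overlapped. They were 27.2, 18.5 and 3.60 RPM at 18 months and 29.1, 23.9 and 19.8 RPM at 30 months. Only the 18-month replicate 3 lay far below the others.

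The 3 most abundant higher gene models were gene27821, gene20699 and gene22883. For gene20699 (chromosome 18, 11031 bases) the CPM was 445, 96.1 and 143 at 18 months and 552, 520 and 528 at 30 months, a difference of 1.54 that was 0.90 in site reads. The CPM of gene22883 (chromosome 19, 8694 bases) was 350, 107 and 194 at 18 months and 463, 385 and 371 at 30 months, with differences of 1.06 in counts and 0.998 in site reads. In both, the 30-month libraries were tight and the 18-month ones wide. The most abundant, gene27821 (chromosome 25, 15272 bases), had 96.9, 563 and 43.4 CPM at 18 months and 696, 710 and 739 CPM at 30 months, a difference of 2.42 that was 1.61 without the 18-month replicate 3. Its site reads did not move with it: they were 955, 837 and 503 RPM at 18 months and 923, 519 and 990 RPM at 30 months, ranges that overlap. Of these site reads, 93.7% lay at intron sites, so they are a poor measure of its exons. At 6 months the CPM of gene27821 was 142, 834 and 135, so that low and high libraries stood side by side within an age.

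The higher gene models that had too few SNP reads to check were led by new gene models. For Bos_taurus_newGene_15402 (1298 bases) the CPM was 0.201, 0.707 and 0 at 18 months and 46.6, 48.4 and 42.2 at 30 months. At 6 months a single library had 48.3 CPM and the others 0.548 and 0.617, so this model also took either a low or a high level. Bos_taurus_newGene_44233 (6898 bases) had 17.6, 0 and 18.0 CPM at 18 months and 56.4, 53.1 and 69.8 CPM at 30 months. Bos_taurus_newGene_79000 (66844 bases) had 136, 0.135 and 3.59 CPM at 18 months against 172, 176 and 176 CPM at 30 months, and 155 to 165 CPM at 6 months.

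Gene models lower at 30 months included some of the clearest agreement between counts and site reads. For gene554, a short model of 604 bases on chromosome 1 (sites at 80250015 to 80251969), the CPM was 16.5, 62.6 and 36.2 at 18 months and 1.81, 1.31 and 6.71 at 30 months. All 3 older cows lay below all 3 younger ones, and the edgeR log2 fold change was -3.55 (SE 0.800, adjusted p = 0.640). Its sites had 16.7, 55.3 and 52.2 RPM at 18 months and 1.66, 0.352 and 7.06 RPM at 30 months. The 6-month libraries had 1.91, 2.24 and 5.10 CPM, within the range of 30 months.

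The same order was seen for gene29849 (chromosome 28, 41903767 to 41908765, 652 bases), with 5.202, 43.4 and 12.5 CPM at 18 months and 0.434, 2.59 and 0.437 CPM at 30 months. Its site reads were 105, 607 and 183 at 18 months and 5, 44 and 5 at 30 months. At 18 and at 30 months the second cow was the highest for gene29849, in counts and in site reads. For gene2141 (chromosome 2, 3165 bases) the second 18-month cow carried nearly all of the signal: the CPM was 1.51, 58.3 and 1.85 at 18 months and 0.536, 0.761 and 0.968 at 30 months, and all 63 site reads of the 6 libraries came from that cow.

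The most abundant lower gene model, gene27101, has 6799 bases and lies on chromosome 24, where 360 SNP sites, 309 of them in introns, span positions 2481232 to 2593224. It had 6799, 16723 and 3630 CPM at 18 months and 2024, 590 and 3147 CPM at 30 months. Per length, its mean was 1870 FPKM at 18 months and 664 FPKM at 30 months. The gap between the lowest 18-month library and the highest 30-month library was narrow, and with library totals in place of TMM factors the ranges overlapped. Site reads moved less, with 1570, 4161 and 1278 RPM at 18 months and 1560, 1146 and 1842 RPM at 30 months, so that only the 18-month replicate 2 stood out. At 6 months the CPM of gene27101 was 1749, 1395 and 1767.

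Both of the next most abundant lower gene models behaved alike in this respect. For gene23266 (chromosome 19, 2540 bases) the CPM was 610, 1270 and 362 at 18 months and 239, 211 and 252 at 30 months, and the site reads differed by -0.04 on the log2 scale. For gene24303 (chromosome 20, 3808 bases) the CPM was 430, 1002 and 488 at 18 months and 249, 206 and 329 at 30 months, and the site reads differed by -0.36. The 18-month replicate 2 was the highest library for gene27101, gene23266 and gene24303.

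In several lower gene models the counts fell far more than the site reads, a gap that picking by count difference by itself widens. For gene26285 (chromosome 23, 3638 bases, 86 sites) the CPM was 37.4, 90.5 and 5.29 at 18 months and 0.613, 0.821 and 1.09 at 30 months, a difference of -4.35, while site reads differed by -0.56. Its sites still had 260, 474 and 287 RPM at 30 months, against 365, 960 and 324 RPM at 18 months. For gene13842 (chromosome 11, 4978 bases, 99 sites) the CPM was 54.9, 1.68 and 7.14 at 18 months and 0.791, 0.578 and 1.03 at 30 months, while site reads were level, at 117, 199 and 45.3 RPM and 111, 89.5 and 91.9 RPM. A similar gap was seen for gene20752 (chromosome 18, 1084 bases), with differences of -4.10 in counts and -0.79 in site reads. For gene17775 (chromosome 15, 20340 bases) they were -3.21 and -1.07, and with the authors' FPKM in place of CPM its ranges overlapped.

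Lower gene models without enough SNP reads were led by gene25298 (3013 bases), with 212, 844 and 110 CPM at 18 months and 42.9, 0.0913 and 74.9 CPM at 30 months. Bos_taurus_newGene_11025 (25620 bases) had 130, 69.4 and 361 CPM at 18 months and 9.01, 0.152 and 21.7 CPM at 30 months, and its authors' FPKM overlapped between the ages. For gene1035 (2284 bases) the CPM was 2.25, 30.6 and 4.88 at 18 months and 0.536, 1.13 and 0.343 at 30 months. At 6 months gene1035 had 0.390 to 0.470 CPM, close to its level at 30 months, while gene25298, at 107 to 112 CPM, lay around the lowest 18-month library.

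**Figure D2:**
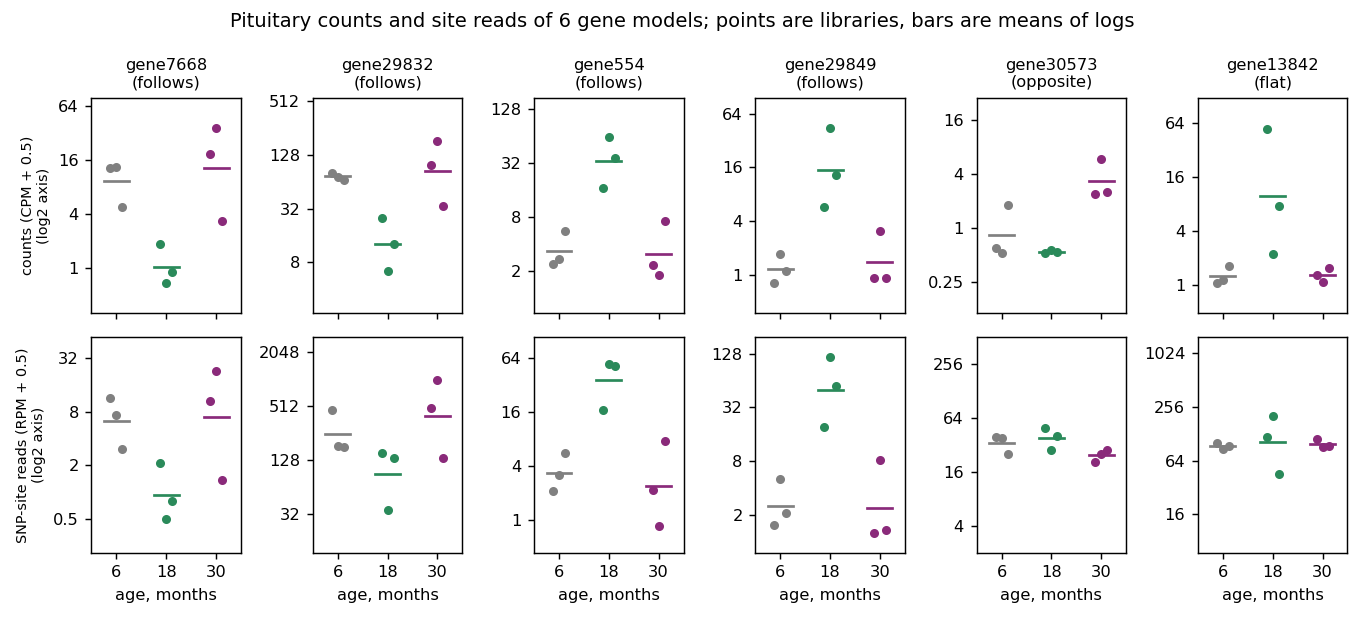
Pituitary CPM (upper row) and SNP-site RPM (lower row), each plus 0.5 on log2 axes of equal span, by age for 6 of the named gene models, picked after their values were seen; points are libraries and bars are means of the logs. Counts and site reads moved together for gene7668, gene29832, gene554 and gene29849, and not for gene30573 and gene13842.

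Whether reads at SNP sites follow the counts was asked for the separated gene models with at least 60 site reads over the 6 libraries, 110 of the 206 higher and 104 of the 174 lower ones. A further 133 had no site reads and 33 had fewer than 60. Site reads were called as following when the mean of log2(RPM + 0.5) differed by at least 0.5 in the direction of the counts. They followed in 89 of 110 higher gene models (80.9%) and in 75 of 104 lower ones (72.1%), or 76.6% of both (95% Wilson interval 70.5% to 81.8%, counting error only). In 42 they were flat and in 8 they went the other way by at least 0.5.

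Shares nearly as high were found for large differences in general. Of the 1518 gene models tested with enough site reads and a count difference of at least 1, whatever their ranges, site reads followed in 67.5%. Among 1071 gene models with a count difference of at least 1 and overlapping CPM ranges, site reads followed in 66.9%. Over all 12659 gene models tested that had enough site reads, they followed in 36.3%. Both readouts come from the same reads, so that agreement between them is no independent test of age. The median difference in site reads was 1.13 in the higher gene models and -1.10 in the lower ones; the count medians, 1.58 and -1.62, are raised in size by the choice and cannot be set against them. The site reads themselves did not overlap between the ages in 90 of 214 (42.1%), against 9.63% of the 12659 gene models tested with enough site reads. The choice on counts of the same libraries raises the first share.

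Leaving out 3′ UTR sites, where the 18-month replicate 3 had its excess, lowered the share that followed to 72.7% of 209; coding sites alone gave 78.5% of 149, and coding with UTR sites gave 81.9% of 177. The flat and the following gene models had similar levels, with medians of 18.1 and 16.4 CPM, and similar shares of intron reads among their site reads, 12.8% and 9.69%. The 8 opposite ones had a median of 3.603 CPM and 1.68 site reads per count (3.11 in the 4 higher and 0.801 in the 4 lower ones), against 0.267 in those that followed. Over all gene models tested the order was the reverse, with medians of 31.9 CPM and 0.1385 site reads per count in the opposite ones, against 30.1 CPM and 0.1895 in those that followed. An example is gene30573 (chromosome 29, 43981729 to 43986363, 1755 bases), with 0.0336, 0.0673 and 0.0348 CPM at 18 months and 1.94, 5.48 and 2.03 CPM at 30 months. Its site reads were 48.5, 27.8 and 39.6 RPM at 18 months and 20.1, 24.96 and 27.2 RPM at 30 months, lower in all 3 older cows.

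The flat group included the following examples. Bos_taurus_newGene_72495 (chromosome 18, 26839 bases) had 0, 0 and 1.18 CPM at 18 months and 11.9, 21.2 and 4.78 CPM at 30 months, while its sites had 8.78, 11.8 and 20.4 RPM and 11.01, 9.67 and 11.4 RPM. Of its 22 sites, 0 were labelled as coding, UTR or intron sites. For gene25126 (chromosome 21, 5151 bases) the CPM was 4.40, 0.303 and 5.40 at 18 months and 5.74, 22.2 and 11.9 at 30 months. The site reads of gene25126, at 28.8, 7.71 and 34.2 RPM and 14.8, 57.3 and 17.7 RPM, overlapped between the ages.

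**Figure D3:**
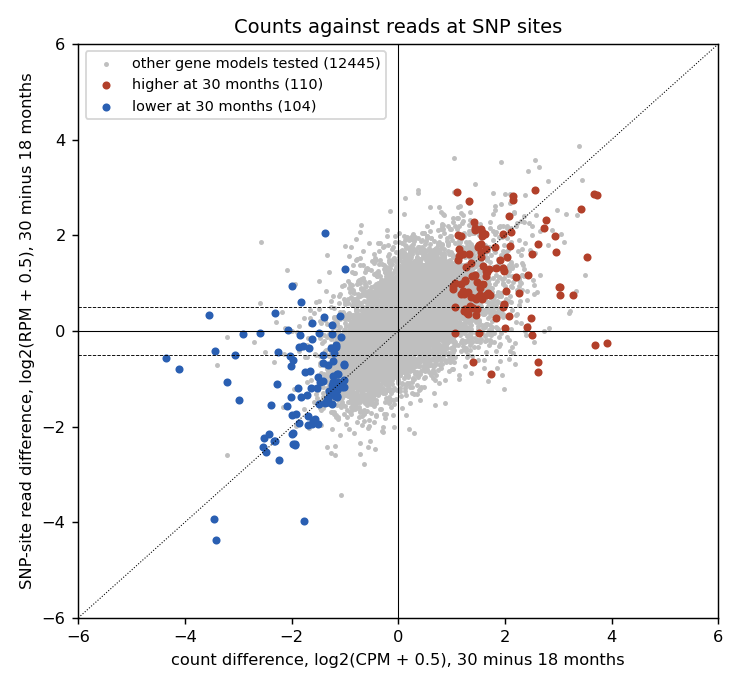
Difference between 30 and 18 months in counts (x axis, log2(CPM + 0.5)) and in SNP-site reads (y axis, log2(RPM + 0.5)) for gene models with at least 60 site reads; each point is a gene model, the dotted line marks equal differences and the dashed lines the limits of 0.5. Of the coloured separated gene models, 164 of 214 lie beyond the limit on the side of their counts and 8 beyond the opposite limit.

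Gene models higher at 30 months were long and lower ones short. The median length was 6650.5 bases for the higher (quartiles 3571 and 13605) and 3092.5 bases for the lower ones (1867 and 5243), against 4760 bases for all gene models tested. When all tested gene models were split by length into 5 groups of equal size, 0.593% of the shortest group and 1.99% of the longest were separated and higher. For lower gene models the shares ran the other way, from 1.54% to 0.404%. A shift with length was not particular to the separated gene models. Over all gene models tested, the median log2 difference rose from -0.254 in the shortest group to 0.327 in the longest. Without the 18-month replicate 3 it rose from -0.053 to 0.128.

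Among the separated gene models, the link with length that held without the 18-month replicate 3 concerned the higher ones. With that library in no condition, the share higher rose from 1.10% in the shortest group to 2.75% in the longest. The share lower was then 2.32%, 2.96%, 2.86%, 2.26% and 2.56% from the shortest to the longest group, with no steady change, and the median length of the lower gene models was 4618 bases. The 3′ UTR share of site reads, which differed between the ages as given above, moves with this result; its part in it was not tested.

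**Figure D4:**
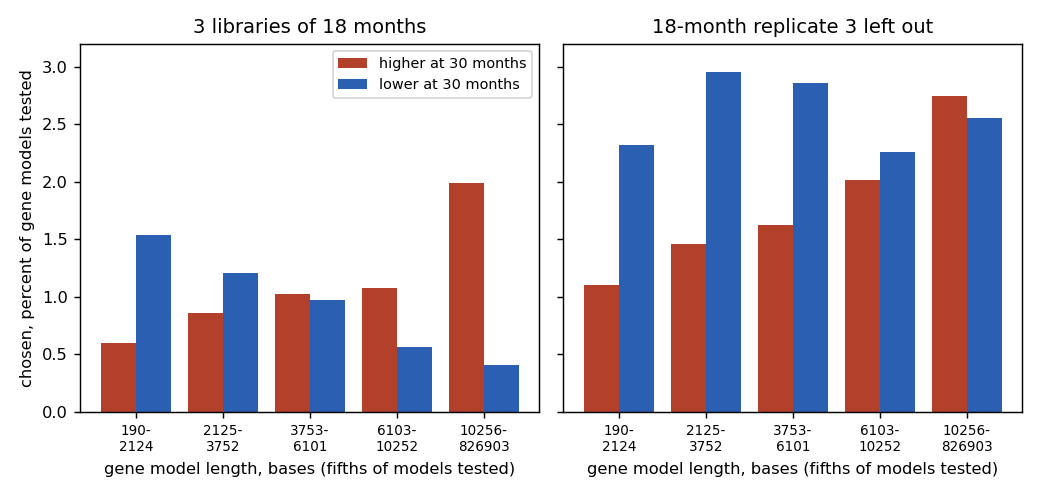
Percent of gene models tested that were separated, in 5 groups of equal size by gene model length, with all 3 libraries of 18 months (left) and with the 18-month replicate 3 left out of every condition (right); red bars are higher and blue bars lower at 30 months. On the left the red bars rise from 0.593% to 1.99% and the blue bars fall from 1.54% to 0.404%; on the right only the red bars change steadily with length.

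SNP sites placed 250 of the 380 separated gene models on a chromosome, 127 higher and 123 lower. They lay on all 29 autosomes and on the X chromosome. Among the 14359 tested gene models that could be placed, 1.74% were separated, and per chromosome the share ran from 0.926% on chromosome 17 (4 of 432) to 3.93% on chromosome 9 (12 of 305). On chromosome 14, 8 were higher and 1 lower, and on chromosome 23 likewise 8 and 1. On chromosome 25, 2 were higher and 8 lower, and on chromosome 1, 3 and 10. Counts per chromosome are small, and differences between chromosomes were not tested.

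The 6-month pituitaries, which did not choose the gene models, resembled 30 months more often than 18 months, in the separated gene models and in all tested. The 6-month mean of log2(CPM + 0.5) was closer to that of 30 months in 151 of 206 higher and 147 of 174 lower gene models, 78.4% of both. Over all gene models tested the share was 71.0%, and among those with a difference of at least 1 but overlapping ranges 83.6%. Without the 18-month replicate 3 these shares were 79.2% of the separated gene models, 70.5% of all tested and 69.7% of those with overlapping ranges. All 3 of the 6-month libraries lay beyond the 18-month range, on the side of 30 months, in 249 of 380 (65.5%; 23.2% of all tested). They lay beyond the 30-month range, on the side of 18 months, in 58 (15.3%; 7.24% of all tested).

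**Figure D5:**
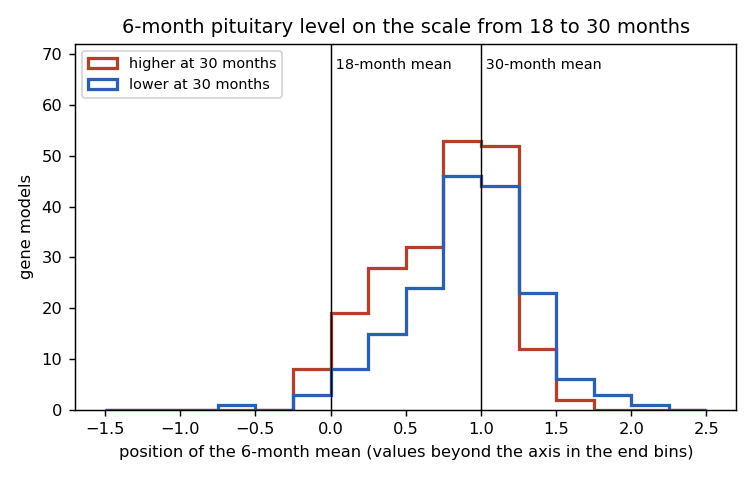
Position of the 6-month pituitary mean of log2(CPM + 0.5) on a scale where 0 is the 18-month mean and 1 the 30-month mean, as the number of gene models per bin of 0.25; red is higher and blue lower at 30 months. The tallest bins of both groups lie beside 1, with medians of 0.837 for the higher and 0.959 for the lower gene models, against 0.995 for all gene models tested.

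In the hypothalamus at the same ages, whose libraries also had no part in the choice, no separated gene model passed the edgeR test. The edgeR test of the hypothalamus called 0 of 18763 gene models (0.0%), with 389 at an unadjusted p under 0.05 (2.07%). Of the 372 separated gene models tested there, 0 passed and 17 had an unadjusted p under 0.05 (4.57%), 11 of them in the direction of the pituitary; DESeq2 called 2, gene17775 and gene15183, and 17 of all 18763 tested. The edgeR fold change had the sign of the pituitary in 159 of 372 (42.7%), against 55.6% of all gene models tested in both tissues. Leaving out the second 30-month hypothalamus library gave 63.2%, and leaving out the second one of 18 months gave 30.6%. It was 56.2% for the higher and 26.9% for the lower gene models. Over all 18 libraries, the test of whether the difference between the ages differs between the tissues called 0 of 19707 gene models with edgeR, and 875 had an unadjusted p under 0.05. That fit had no term for the cow, although the cows gave both tissues, because the labels do not say which libraries share a cow.

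Among the named gene models, gene17775 was lower at 30 months in both tissues. In the hypothalamus it had 33.7, 20.6 and 38.6 CPM at 18 months and 9.50, 3.88 and 3.51 CPM at 30 months, ranges that do not overlap; the edgeR log2 fold change there was -2.46 with an unadjusted p of 0.000537 and an adjusted p of 1. For gene13842 the hypothalamus levels were all under 1 CPM, and its log2 fold change of -2.55 had an unadjusted p of 0.0123 in edgeR. Bos_taurus_newGene_15402 had 0.480, 0.954 and 0.260 CPM at 18 months in the hypothalamus and 40.6, 0.181 and 39.2 CPM at 30 months, again with levels either low or high. Named after its values were seen, gene15183 (chromosome 12, 2998 bases) was low but ordered alike in both tissues. Its pituitary CPM was 0.134, 0 and 0 at 18 months and 0.383, 2.19 and 4.50 at 30 months; in the hypothalamus it had 0, 0.145 and 0 CPM at 18 months and 0.447, 5.69 and 4.27 CPM at 30 months (edgeR adjusted p = 1). By contrast gene554, lower at 30 months in the pituitary, had 9.38, 76.8 and 7.37 CPM at 18 months in the hypothalamus and 5.09, 107 and 6.04 CPM at 30 months, so the second library of each age was the high one.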

How the data were processed

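The authors deposited whole-number read counts per gene model, with the gene model length, and FPKM for the same gene models; HISAT2, GATK, StringTie and DESeq are listed, without a version or a role, in the submitters' processing notes, and the genome build and annotation are not given in the sources used here. The deposited table of 992284 SNP sites gives, per the file headers, the depth in each library as a count of reads, the gene model and the kind of site. A site with no depth entry in a library was taken as 0 reads. Chromosome accessions are those that NCBI uses for the UMD cattle assembly, and positions are printed as the table gives them. The insertion and deletion table was not used.

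Counts of the 9 pituitary libraries were fitted together, by age, with edgeR 4.0.16 (R 4.3.3, limma 3.58.1): TMM factors, the expression filter by group, the quasi-likelihood test with 6 residual degrees of freedom, and Benjamini-Hochberg adjustment over all gene models tested at 0.05. The hypothalamus was fitted likewise. DESeq2 was version 1.42.0. Standard errors were derived from each log2 fold change and its F statistic. Site reads were summed per gene model over sites of every kind assigned to it, and scaled to the library's total over sites. The pituitary fit and the choice of gene models were tested on simulated data, in which the choice also took many gene models that had not been changed; being separated is therefore no evidence of a change with age. Replicates are numbered in accession order, and p-values measure the spread between these cows, 1 library each.

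Named are, in each direction, the 8 separated gene models with at least 60 site reads and the largest difference without the 18-month replicate 3, the 3 most abundant, the 3 of largest difference among the others, any called by edgeR, and 2 just inside and 2 just outside the threshold. Gene models and rules were chosen with earlier results of these data known. A list of pituitary cell type markers was not run, since no symbols were matched. No sequence was used.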

Additional observations from a re-analysis of the deposited data

How the results depend on the processing

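Under RLE factors, library totals, a pseudocount of 1 CPM, a filter of 1 CPM in 3 libraries and the authors' FPKM, the numbers of separated gene models, their median lengths and the share whose site reads followed stayed within 1.5 times (or the 95% interval) of the main values. Leaving out a library other than the 18-month replicate 3 gave 288 to 789 higher and 223 to 428 lower gene models, median lengths of 5915.5 to 8772 and 2643.5 to 3580 bases, and following shares of 72.4% to 84.4%. With the 18-month replicate 3 in no condition, an alternative added after seeing the data, 332 were higher and 481 lower. With a library left out, fewer libraries must not overlap, which by itself tends to raise these numbers. The share that followed was 90.7% when only the sign was asked and 81.9% with coding and UTR sites, also added later. The hypothalamus share lay between 30.6% and 63.2% when single libraries were dropped. With a library of 18 months left out (also added later), the 6-month mean was closer to 30 months in 76.3% to 79.2% of the separated gene models, 70.5% to 77.1% of all tested and 69.7% to 86.4% of those with overlapping ranges. DESeq2 called 134 gene models, and edgeR called 0 to 7 with a library left out, the 7 without the 18-month replicate 1. Gene models with an unadjusted p under 0.05 numbered 660 to 3096 when single libraries were dropped, 515 with only the 6 libraries, 2374 with all 18 libraries and 893 with weighted limma-voom. The cause of these shifts was not tested. The median difference of all gene models tested was 0.03 with TMM factors and 0.12 with library totals (log2). No paired analysis was possible because the cows of both ages are different animals and the labels give no replicate numbers. Gene models at or near 0 CPM in an age have differences set by the pseudocount, and those under 60 site reads could not be checked against SNP sites.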
